A study of Mus musculus with 57 samples.

Results

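NMDA receptor subunits were followed through the prefrontal cortex of young mice as 6 genes, Grin1, Grin2a, Grin2b, Grin2c, Grin2d and Grin3a, of 51456 gene identifiers measured. They were chosen by name as the Grin family, not by their values, and all 6 lay above the minimum level for testing. RNA sequencing covered 57 C57BL/6N mice analysed on postnatal day 25, of which 30 carried a heterozygous Shank2 mutation (HT) and 27 were wild type (WT). Between postnatal days 3 and 24 the nursing pups took in fluoxetine (an antidepressant that blocks serotonin reuptake), lithium (used in bipolar disorder) or vehicle with the milk. The 6 arms of genotype and drug held 8 WT vehicle, 10 HT vehicle, 10 WT fluoxetine, 10 HT fluoxetine, 9 WT lithium and 10 HT lithium libraries. Each arm held females and males, with 4 or 5 libraries per sex. All arms share the strain, the age, the tissue and the route through the dam. The labels do not give the allele of Shank2, the doses or the litters. Littermates drank from the same dam, and litters could not enter the tests. The p-values treat each library as independent, although part of the spread may lie between litters, so those of the drug comparisons may be too small. An effect of a drug and a difference between litters cannot be told apart here.

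NMDA receptors are glutamate-gated cation channels that open when glutamate binds while the membrane is depolarized, and that let calcium into the postsynaptic cell. Each channel joins obligatory GluN1 subunits, encoded by Grin1, which bind the co-agonist glycine or D-serine, with GluN2 subunits, which bind glutamate, or GluN3 subunits, which bind glycine. In rodent forebrain GluN2B dominates around birth and GluN2A increases during postnatal weeks, a change known as the subunit switch that shortens the synaptic current. GluN2C is known from cerebellar granule cells and, in the forebrain, from astrocytes and some interneurons, GluN2D from interneurons and from early development, and GluN3A from the juvenile cortex, where it lowers calcium entry. Shank2 is a scaffold protein of the postsynaptic density, and Shank2 mutant mice are studied as a model of autism in which NMDA receptor function is altered.

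All 6 genes lie on the minus strand of GRCm38. Grin1 (ENSMUSG00000026959) spans chr2:25291181-25319187, Grin2a (ENSMUSG00000059003) chr16:9567898-9995560 and Grin2b (ENSMUSG00000030209) chr6:135713233-136173511. Grin2c (ENSMUSG00000020734) spans chr11:115249169-115267243, Grin2d (ENSMUSG00000002771) chr7:45831883-45878378 and Grin3a (ENSMUSG00000039579) chr4:49661611-49845744. Grin2d overlaps the abundant gene Kdelr1 on the other strand (median level 1537), and a noncoding antisense gene, Gm45441 (median level 182). The library kit keeps the strand, but no source used here says how the counting used it, so reads of Grin2d and of these neighbours cannot be told apart where they overlap. Upstream sequence was at hand for Grin1, Grin2c and Grin2d. It is shown because Grin1 and Grin2c deviated in opposite directions across libraries and Grin2d was the subunit gene that rose with fluoxetine. Each line gives the 250 bases before the RefSeq start of the gene (GRCm38.p6, minus strand, 5′ to 3′), with capitals for the GC box GGGCGG, the motif of Sp1-type factors, on either strand.
Grin1 chr2:25319188-25319437: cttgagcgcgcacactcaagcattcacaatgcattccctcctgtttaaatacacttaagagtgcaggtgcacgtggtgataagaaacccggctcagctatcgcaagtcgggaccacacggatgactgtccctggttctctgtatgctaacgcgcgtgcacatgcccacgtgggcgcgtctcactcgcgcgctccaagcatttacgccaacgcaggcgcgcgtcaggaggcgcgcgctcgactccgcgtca
Grin2c chr11:115267244-115267493: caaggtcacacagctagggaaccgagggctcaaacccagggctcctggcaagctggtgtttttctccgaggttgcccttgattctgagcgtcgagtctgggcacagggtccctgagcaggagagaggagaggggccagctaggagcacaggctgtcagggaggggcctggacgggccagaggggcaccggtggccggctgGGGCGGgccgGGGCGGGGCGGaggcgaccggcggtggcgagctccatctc
Grin2d chr7:45866682-45866931: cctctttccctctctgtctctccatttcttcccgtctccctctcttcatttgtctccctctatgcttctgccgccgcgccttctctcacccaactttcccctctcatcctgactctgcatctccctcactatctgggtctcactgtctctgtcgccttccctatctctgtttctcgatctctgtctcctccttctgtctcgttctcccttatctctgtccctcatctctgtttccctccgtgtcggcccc
The RefSeq start of Grin2d lies inside the gene as annotated by GENCODE. The Grin2c stretch held 3 GC boxes, of which 2 overlap, and was 68.8% G or C. The Grin1 stretch held 0 GC boxes at 58.8% G or C, and the Grin2d stretch held 0 at 54.4%, beside a median of 52.4% over all promoters. A GC box was present in 32.7% of 32851 mouse promoters of the same length. The cAMP response element TGACGTCA (1.55% of promoters) and the E-box form CAGCTG (4271 promoters) were found in 0 of the 3 stretches, which says only that these letters are not in this window. Other E-box forms, such as CACGTG, which the Grin1 stretch holds, were not searched.

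Values are normalized estimated counts, whose totals per library ran from 30378902 to 33234604. Levels below are on this scale, with ± for the SD over libraries. Changes are log2 changes of value + 1 with ± for the standard error of the limma fit, and a change is called at a Benjamini-Hochberg adjusted p under 0.05 over 16659 genes. Shank2 averaged 4388 ± 322 over 30 HT libraries against 9882 ± 1086 over 27 WT libraries, without overlap (HT 3877 to 5006, WT 6762 to 11791). Cortical markers were above 0 in every library, from the transporter Slc17a7 (44452 to 68522) to the transcription factor Emx1 (320.4 to 689.9). Markers of the olfactory bulb, a neighbouring tissue, varied widely, Cdhr1 from 249.9 to 6397. Among 57 libraries a few stood apart. WT vehicle male 2 had the lowest median correlation with the others (0.968, against a median of 0.985), the lowest WT level of Shank2 and the strongest shortfall of long transcripts. That shortfall is measured by the length trend. This is the rank correlation over 16452 genes between a gene's median transcript length and the deviation of a library from the rest. The trend was -0.33 in this library and -0.33 to 0.17 over all. HT fluoxetine male 3 had the next lowest median correlation (0.970), with microglial markers at -0.81 and oligodendrocyte markers at -0.74 on the log2 scale relative to all libraries. WT vehicle female 1 followed (0.977). It had the highest mean of olfactory bulb markers (2.60) and the lowest of cortical excitatory neuron markers (-0.41) on the same scale. Values without these libraries are given beside the member results they moved most.

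Per kilobase of the longest coding transcript, Grin1 was the most abundant subunit RNA, with 4293 ± 299 (n = 57). It was followed by Grin2b with 1155 ± 181, Grin2a with 564 ± 60.6, Grin2c with 362 ± 56.1, Grin3a with 291 ± 29.2 and Grin2d with 116 ± 15.2. Grin1 lay above Grin2b in 57 of 57 libraries and Grin3a above Grin2d in 57 of 57, with ranges that did not overlap. Grin2b lay above Grin2a, and Grin2a above Grin2c, in 56 of 57 libraries each, and Grin2c above Grin3a in 48 of 57. The order depends in part on the length used, because the Grin2b transcript of 24060 bases is mostly untranslated. Per kilobase of coding sequence Grin1 (6380.4) and Grin2b (6250.5) did not separate, with Grin1 higher in 29 of 57 libraries, and Grin3a (641) lay above Grin2c (477) in 51 of 57. Grin2a followed Grin2b by either length, at 0.498 of its level per kilobase of transcript and 0.307 per kilobase of coding sequence. Grin3b, which encodes the second glycine-binding GluN3 subunit, was near the floor with a mean of 3.86 and was not tested.

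**Figure D1:**
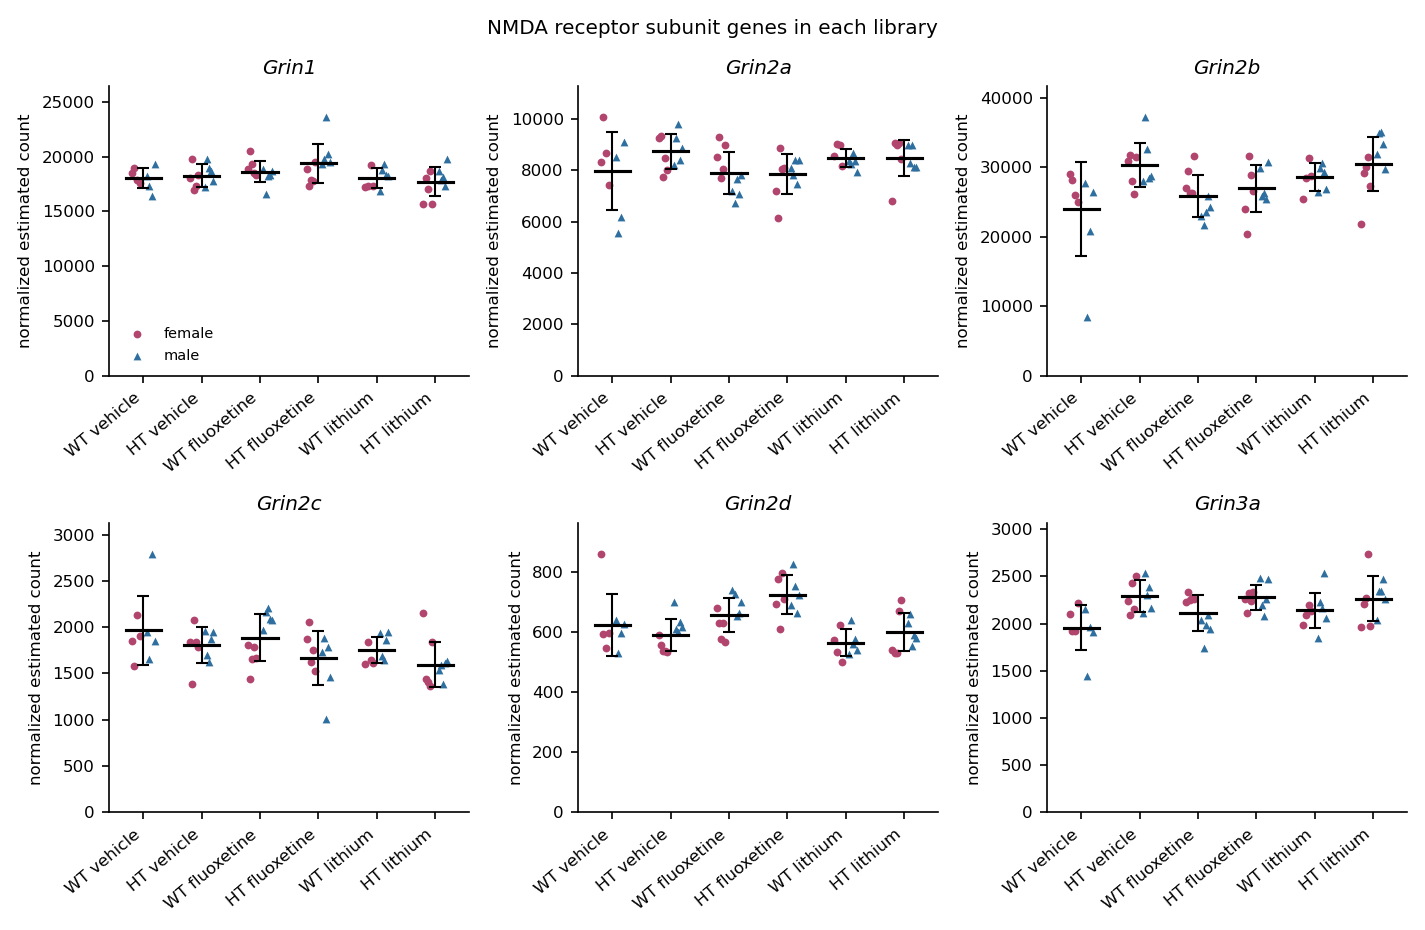
Normalized estimated counts (y axis, from 0) of the 6 subunit genes in each of 57 libraries, by arm of genotype and drug (x axis); points are libraries coloured by sex, bars the arm mean with its SD. The lowest Grin2b value, 8505, is WT vehicle male 2, and HT fluoxetine holds the highest arm mean of Grin2d, 725.

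Genotype was compared first under vehicle, where genotype is the one labelled difference. Grin3a, the subunit that makes channels less permeable to calcium, was higher in HT. In WT vehicle libraries Grin3a ran from 1439.6 through a median of 1945 to 2222, and in HT vehicle from 2086 through 2269.8 to 2536. The groups overlapped, but 6 of 10 HT libraries exceeded every WT library and 10 of 10 exceeded the WT median. The change of Grin3a was 0.24 ± 0.06 (adjusted p = 0.0405), which made it the 1 member called of 6, beside 0.762% of all genes tested in this comparison (0.528% higher and 0.234% lower), or 127 genes, and 48 genes without WT vehicle male 2. That call was fragile. Without WT vehicle male 2, which holds the lowest Grin3a value, the change fell to 0.18 (adjusted p = 0.14), and leaving out any of 9 other libraries also ended the call, at 0.22 to 0.24 (adjusted p 0.0524 to 0.102): HT vehicle females 1, 3 and 5, HT vehicle males 2, 3 and 4, and WT vehicle females 1, 2 and 3. It was also lost with only the vehicle groups in the fit (adjusted p = 0.281), with no filter on low values (0.0708) and with limma library weights (0.075).

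Grin2b, the GluN2 subunit of the newborn forebrain, had the largest change of the 6 under vehicle without passing the test. Its values ran from 8505 through a median of 26221 to 28944 in WT vehicle and from 26124 through 29785 to 37192 in HT vehicle. 5 of 10 HT libraries lay above every WT library and 9 of 10 above the WT median. The change was 0.41 ± 0.11 (limma, adjusted p = 0.0689). WT vehicle male 2 sits far below the other WT vehicle libraries, which start at 20799.5. Without that library the change was 0.22 (adjusted p = 0.151), whereas it was called without HT vehicle female 4 (0.44, adjusted p = 0.0489), WT vehicle male 1 (0.51, adjusted p = 0.0142) or WT vehicle male 4 (0.49, adjusted p = 0.0162). With the length trend as a term in the fit Grin2b was called at 0.34 (adjusted p = 0.0272). The length trend averaged -0.08 in WT vehicle and -0.05 in HT vehicle. Of the marker lists, 1 of 10 astrocyte genes was lower in HT vehicle, and the 12 striatal markers, with 0 called, had a median change of -0.65. The mean log2 level of olfactory bulb markers was also lower in HT vehicle than in WT vehicle. It ran from -1.46 to 1.20 over HT vehicle libraries and from -1.30 to 2.60 over WT vehicle libraries. The part of these lists in these results was not tested.

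The other 4 members did not pass under vehicle. Grin2a, the GluN2 subunit of the mature forebrain, was 7976 ± 1515 in WT (n = 8) and 8741 ± 677 in HT (n = 10), a change of 0.15 ± 0.07 (adjusted p = 0.277), and 0.09 without WT vehicle male 2. The obligatory subunit Grin1 was 18021 ± 937 and 18269 ± 1015, a change of 0.02 with a 95% interval of -0.06 to 0.10. Grin2c changed by -0.11 ± 0.09 and Grin2d by -0.07 ± 0.07. The median change of the 6 was 0.09, against a median of -0.00 over all genes tested.

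Averaged over the 3 treatments, with all 57 libraries, Grin3a was higher in HT by 0.14 ± 0.03 (adjusted p = 0.00758). Its mean was 2278 ± 179 over the 30 HT libraries against 2075 ± 212 over the 27 WT libraries, and the HT arms all averaged between 2263 and 2292 while the WT arms averaged 1955 to 2139. Grin3a was called in 57 of 57 fits that left out a library, at 0.12 (adjusted p = 0.012) without WT vehicle male 2. It was the 1 member called, beside 3.74% of all genes (1.62% higher and 2.12% lower). Grin2b (0.18 ± 0.06, adjusted p = 0.0917) and Grin2c (-0.15 ± 0.05, adjusted p = 0.101) came next and did not pass. Grin2b was 0.12 (adjusted p = 0.0695) without WT vehicle male 2 and was called without WT vehicle male 1 (0.22) or WT vehicle male 4 (0.21), and Grin2c without HT lithium female 1 (-0.16, adjusted p = 0.042). Markers of several cell types moved beside Grin3a in this comparison. Lower in HT were 3 of 9 markers of parvalbumin interneurons, 2 of 10 of astrocytes, 1 of 10 of microglia and 1 of 10 of endothelial and mural cells. In the list of somatostatin and other interneurons 2 of 10 were higher and 1 lower. That list includes Gad1, Gad2 and Slc32a1, general genes of GABA neurons. The part of these markers in the result of Grin3a was not tested. In bulk tissue fewer cells of a type and less RNA per cell cannot be told apart.

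Within each drug no subunit gene was called between HT and WT. Under fluoxetine 0 of 6 members were called by limma (2 at an unadjusted p under 0.05, Grin2c and Grin2d), beside 0.222% of all genes. Grin3a was 2113 ± 188 in WT fluoxetine and 2279 ± 132 in HT fluoxetine (0.11, 95% interval -0.00 to 0.23). Under lithium 0 of 6 were called (0 at an unadjusted p under 0.05), beside 0.114% of all genes, and Grin3a was 2139 ± 188 in WT and 2263 ± 240 in HT (0.08, 95% interval -0.04 to 0.20). Grin2b was 25887 ± 3012 and 26940.4 ± 3425 in WT and HT fluoxetine, and 28537 ± 1978 and 30436 ± 3934 in WT and HT lithium.

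**Figure D2:**
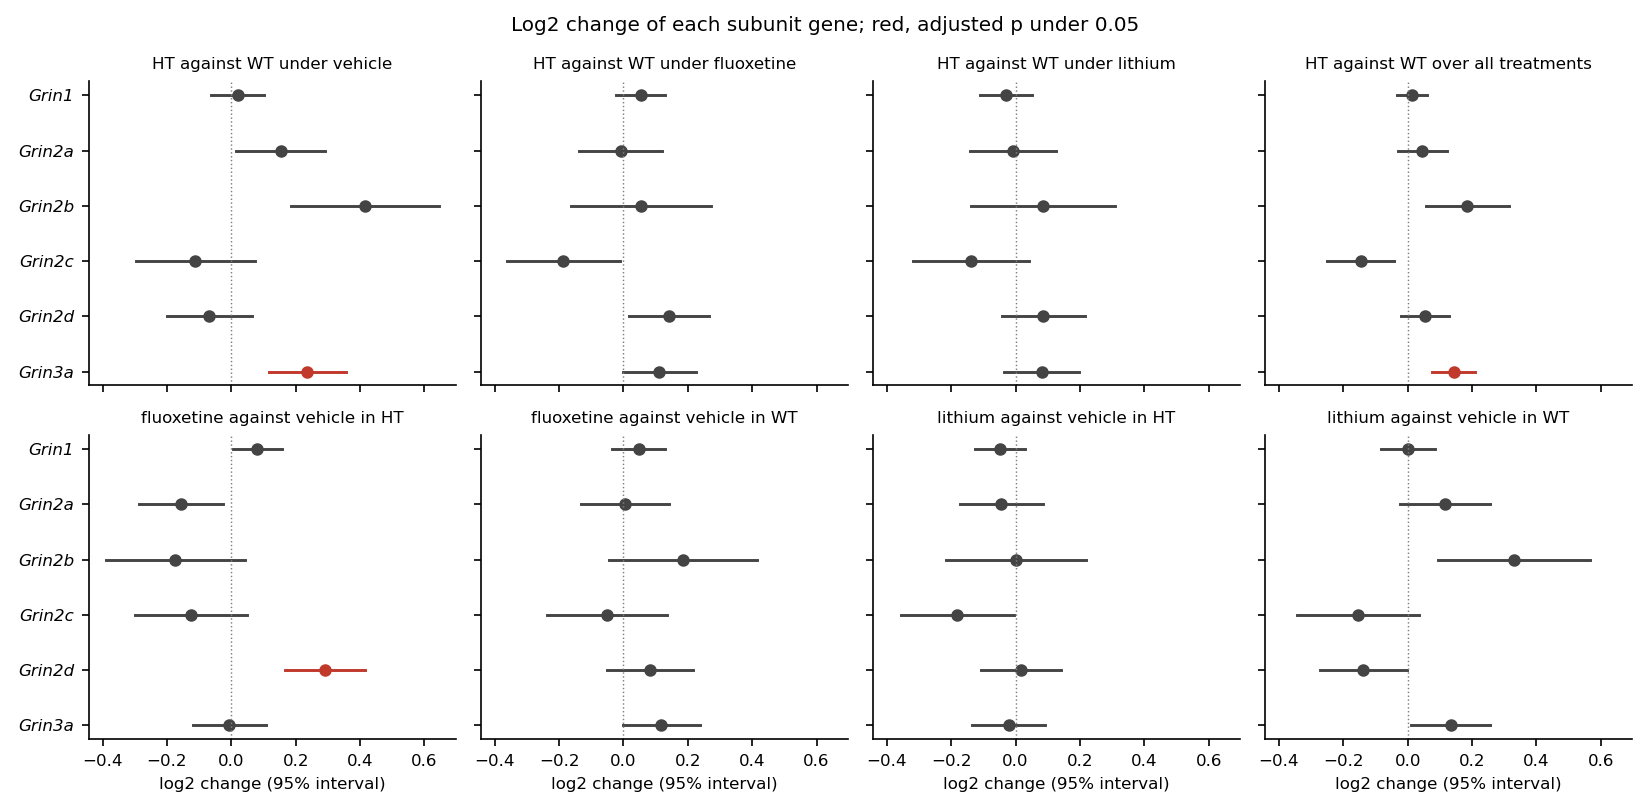
Log2 change (x axis, with the 95% interval of the limma fit) of each subunit gene (y axis) in the comparisons of genotype and drug; red marks an adjusted p under 0.05. Grin3a in HT against WT and Grin2d in fluoxetine against vehicle are the coloured genes, at 0.24 under vehicle and 0.29 in HT.

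Grin2d, the GluN2 subunit of interneurons and early development, rose with fluoxetine in HT mice. HT vehicle libraries ran from 534 through a median of 596 to 701, and HT fluoxetine libraries from 611 through 716 to 826. 10 of 10 fluoxetine libraries lay above the vehicle median and 6 of 10 above every vehicle library. The change of Grin2d in HT was 0.29 ± 0.06 (adjusted p = 0.0203), the 1 call of 6 members, beside 0.33% of all genes. Among females the groups did not overlap (534 to 591 under vehicle, 611 to 798 under fluoxetine), and among males they did (601 to 701, 663 to 826). The share of all genes that separate in this way was not counted, and nothing is read from these ranges. The sex difference of this change was -0.17 ± 0.12 and did not pass (limma, adjusted p = 0.999). The call held in 19 of 20 fits without a library and was lost without HT fluoxetine female 4 (0.27, adjusted p = 0.0589). The overlapping genes Kdelr1 and Gm45441 changed by -0.00 and -0.01 in the same comparison.

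In WT the fluoxetine change of Grin2d was 0.08 ± 0.07 (limma, adjusted p = 0.594). WT vehicle libraries ran from 532 through 598 to 862 and WT fluoxetine libraries from 569 through 659 to 741. The highest value of all 57 libraries, 862, belonged to WT vehicle female 1, and without it the change in WT was 0.15 (adjusted p = 0.168). The change in WT was 0.04 without WT vehicle female 3 and 0.05 without WT vehicle male 2. Over both genotypes Grin2d rose by 0.19 ± 0.05 (adjusted p = 0.0103), beside 4.75% of all genes, and was called in 38 of 38 fits without a library. With the length trend as a term the change over both genotypes was 0.13 and no longer called (adjusted p = 0.256), while in HT alone it remained called. The difference between the genotypes in the fluoxetine change of Grin2d was 0.21 ± 0.09 and did not pass (adjusted p = 0.599), and was 0.14 (adjusted p = 0.802) without WT vehicle female 1.

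Markers of the olfactory bulb moved beside Grin2d. Their mean log2 level, relative to all libraries, was -0.30 in HT vehicle (range -1.46 to 1.20) and 0.64 in HT fluoxetine (range -0.99 to 1.94), with 0 of 9 markers called. The median change of the 9 was 0.93. Over all libraries the defining projection neuron marker Tbx21 ran from 0.966, near the floor, through a median of 35.6 to 404. Across libraries Grin2d deviated with these markers about group means, with Pearson r = 0.58 and Spearman rho = 0.49 (adjusted permutation p = 0.00181 and 0.00448). The list of somatostatin and other interneurons, which shares Calb2 with the bulb list, averaged -0.05 in HT vehicle and 0.05 in HT fluoxetine. Of its markers 0 of 10 were called. The part of these markers in the change of Grin2d was not tested.

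Of the other members, none passed with fluoxetine. In HT, Grin2a was 8741 ± 677 under vehicle and 7857 ± 764 under fluoxetine (-0.16 ± 0.06, adjusted p = 0.242), and 1 of 10 fluoxetine libraries exceeded the vehicle median. Grin2b was 30303 ± 3176 and 26940.4 ± 3425 (-0.17 ± 0.11, adjusted p = 0.466). Grin1 was 18269 ± 1015 and 19368 ± 1779 (0.08 ± 0.04, adjusted p = 0.316), and its highest library, HT fluoxetine male 3 with 23606, had the lowest Grin2c value of all, 1006. Without this library the changes were 0.06 for Grin1 and -0.05 for Grin2c, against -0.13 for Grin2c with it. With the length trend as a term 3 members passed in HT: Grin2d, Grin2a and Grin2b, the last at -0.35 (adjusted p = 0.0295). In WT 0 of 6 members were called by limma (0 at an unadjusted p under 0.05), beside 0.84% of all genes, or 140 genes, and 5 genes without WT vehicle male 2. The value for Grin2b in WT was 0.19 ± 0.11, and -0.01 without that library, and that for Grin3a was 0.12 ± 0.06, and 0.06 without it. Grin2c was 1963 ± 376 under vehicle and 1885 ± 254 under fluoxetine in WT.

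No subunit gene passed the threshold with lithium, which changed more genes than fluoxetine did. Among 6 members 0 calls is near the shares of all genes given here, and nothing is read from it. In WT 0 of 6 members were called by limma (3 at an unadjusted p under 0.05, Grin2b, Grin2d and Grin3a), beside 8.53% of all genes (5.45% higher and 3.08% lower). That share is 1421 genes, and 909 genes were called without WT vehicle male 2. Grin2b ran from 8505 through 26221 to 28944 in WT vehicle and from 25394 through 28666 to 31309.9 in WT lithium (0.33 ± 0.12, adjusted p = 0.0665). The change of Grin2b was 0.14 (adjusted p = 0.281) without WT vehicle male 2 and was called without WT vehicle male 1 (0.42, adjusted p = 0.0115) or male 4 (0.41, adjusted p = 0.0197). In HT 0 of 6 members were called (1 at an unadjusted p under 0.05, Grin2c), beside 0.888% of all genes. Grin2b in HT was 30303 ± 3176 under vehicle and 30436 ± 3934 under lithium, a change of 0.00 with a 95% interval of -0.22 to 0.22, and -0.30 (adjusted p = 0.22) with the length trend as a term.

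Grin2c, the astrocyte and cerebellar subunit, came closest to a call with lithium over both genotypes. It was 1963 ± 376 in WT vehicle and 1752 ± 141 in WT lithium, and 1802 ± 195 in HT vehicle and 1595 ± 244 in HT lithium. The change was -0.17 ± 0.06 (adjusted p = 0.0739), and 0 of 6 members were called by limma (2 at an unadjusted p under 0.05, Grin2b and Grin2c), beside 13.3% of all genes (7.16% higher and 6.14% lower). Grin2c was called with limma library weights (-0.23, adjusted p = 0.00201), and without HT lithium female 1 (-0.19, adjusted p = 0.0264), HT vehicle female 2 (-0.19, adjusted p = 0.0402), WT vehicle female 2 (-0.19, adjusted p = 0.0473) or WT vehicle male 2 (-0.19, adjusted p = 0.0458). Grin2b was 0.17 ± 0.08 (adjusted p = 0.164) over both genotypes, 0.07 (adjusted p = 0.398) without WT vehicle male 2, and called without WT vehicle male 1 (0.21, adjusted p = 0.0496).

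The drug effects were also compared between genotypes and between sexes. For the difference of the fluoxetine effect between HT and WT, limma called 0 of 6 members (2 at an unadjusted p under 0.05, Grin2b and Grin2d) and 0 of 16659 genes (1285 at an unadjusted p under 0.05), which is 0%. For lithium it called 0 of 6 members (1 at an unadjusted p under 0.05, Grin2b) and 0 genes (1218 at an unadjusted p under 0.05), again 0%. The Grin2b differences were -0.36 ± 0.16 for fluoxetine and -0.33 ± 0.16 for lithium. Both share the vehicle arms, and without WT vehicle male 2 they were -0.17 and -0.14. Males against females gave 0 of 6 members (0 at an unadjusted p under 0.05), beside 0.108% of all genes, and Grin2b averaged 27912 ± 2975 over 28 females against 27672 ± 5431 over 29 males. Sex differences of the genotype and drug effects gave 0 of 6 members by limma in each of 5 comparisons, with 0 to 3 members at an unadjusted p under 0.05. The fluoxetine effect in WT was the one of the 5 with calls among all genes (422 or 2.53%, and 8 without WT vehicle male 2). The other 4 gave 0 genes (0%), with 578 to 2463 at an unadjusted p under 0.05. In WT fluoxetine libraries Grin3a was 2226 to 2332 in the 5 females and 1741 to 2087 in the 5 males, and Grin2c was 1436 to 1807 in females and 1964 to 2209.7 in males. Grin2b was 26265 to 31542 in females and 21670.3 to 25877 in males. None of these 3 pairs of ranges overlapped, whereas the ranges of Grin1, Grin2a and Grin2d did overlap between the sexes in this arm. The 3 genes were picked after their values were seen, and the share of all genes that separate in this way was not counted. The difference between the sexes within this arm was not tested, and nothing is read from the ranges. In the same arm the mean of parvalbumin interneuron markers was 0.22 in females and -0.12 in males. The list of somatostatin and other interneurons averaged -0.09 in females and 0.20 in males. Olfactory bulb markers averaged -1.08 in females (-1.48 to -0.17) and 1.64 in males (1.24 to 2.36), and 2 of 9 rose in the sex difference of the fluoxetine effect. Astrocyte markers averaged -0.06 and 0.18. The part of these markers in the ranges above was not tested.

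Subunit ratios were taken in each library as log2 ratios of levels and compared between arms by a two-sided exact permutation test within sex, with adjustment over 4 ratios and 7 comparisons. The ratio of Grin2a to Grin2b follows the GluN2 switch. It ran from -1.80 through a median of -1.64 to -0.62 in WT vehicle and from -2.003 through -1.762 to -1.625 in HT vehicle, with means of -1.53 and -1.79. The difference was -0.26 (exact p = 0.014, adjusted 0.0607). Without WT vehicle male 2, whose ratio of -0.62 stands far above the rest, it was -0.13 (adjusted p = 0.181, exact test). It passed without HT vehicle female 4 (-0.28), WT vehicle female 1 (-0.29), WT vehicle male 1 (-0.31) or WT vehicle male 3 (-0.32). Means in the other arms were -1.71 in WT fluoxetine, -1.77 in HT fluoxetine, -1.75 in WT lithium and -1.84 in HT lithium. The HT fluoxetine arm differed from HT vehicle by 0.02 (exact p = 0.71) and HT lithium from HT vehicle by -0.05 (exact p = 0.412).

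Of the 28 tests of ratios 3 passed, and all 3 were of Grin2d to Grin2b. This ratio averaged -5.19 ± 0.52 in WT vehicle and -5.67 ± 0.19 in HT vehicle, a difference of -0.48 (exact p = 0.000504, adjusted 0.00635). In HT it averaged -5.21 ± 0.27 under fluoxetine, above HT vehicle by 0.47 (exact p = 0.000567, adjusted 0.00635), and 7 of 10 fluoxetine libraries exceeded every vehicle library. In WT it averaged -5.66 ± 0.11 under lithium, below WT vehicle by 0.47 on the log2 scale (difference -0.47, exact p = 0.00068, adjusted 0.00635), and 7 of 9 lithium libraries lay below every vehicle library. Without WT vehicle male 2 the first and the third difference were -0.32 (adjusted p = 0.037, exact test) and -0.30 (adjusted p = 0.0143, exact test). After removal of the slope on the length trend the third was -0.24 (adjusted p = 0.199, exact test). All 3 comparisons draw on a vehicle arm and are not independent. The first and the second share the HT vehicle libraries, and the first and the third share the WT vehicle libraries. About group means Grin2d deviated with olfactory bulb markers (r = 0.58) and Grin2b with the length trend (r = 0.72). In all 3 comparisons the mean of the bulb markers moved in the same direction as the ratio. The part of the bulb markers in these differences was not tested.

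The ratio of Grin3a to Grin1 was -3.21 ± 0.19 in WT vehicle and -3.00 ± 0.12 in HT vehicle, a difference of 0.22 (exact p = 0.00869, adjusted 0.0508). It passed when labels were permuted over both sexes (adjusted p = 0.0459), and without HT vehicle female 2 (0.25), WT vehicle female 4 (0.25), WT vehicle male 1 (0.25) or WT vehicle male 3 (0.25). The difference without WT vehicle male 2 was 0.16 (adjusted p = 0.123, exact test). The ratio of Grin2c to Grin2b was -3.55 ± 0.61 in WT vehicle, -4.07 ± 0.28 in HT vehicle and -4.03 ± 0.18 in WT lithium. The difference was -0.53 between HT and WT under vehicle (exact p = 0.0152, adjusted 0.0607) and -0.49 for lithium in WT (exact p = 0.00907, adjusted 0.0508). The lithium difference in WT passed without WT vehicle female 1 (-0.50), WT vehicle female 2 (-0.54) or WT vehicle male 1 (-0.59), and the vehicle difference without HT vehicle female 4 (-0.56), WT vehicle female 2 (-0.58) or WT vehicle male 1 (-0.63). Without WT vehicle male 2 these differences were -0.34 and -0.38 (adjusted p = 0.126 and 0.169, exact test). Between HT and WT within a drug, Grin3a to Grin1 passed under fluoxetine without HT fluoxetine male 3 (0.10, adjusted p = 0.0333, exact test) and Grin2c to Grin2b under lithium without HT lithium female 1 (-0.32, adjusted p = 0.0423, exact test).

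**Figure D3:**
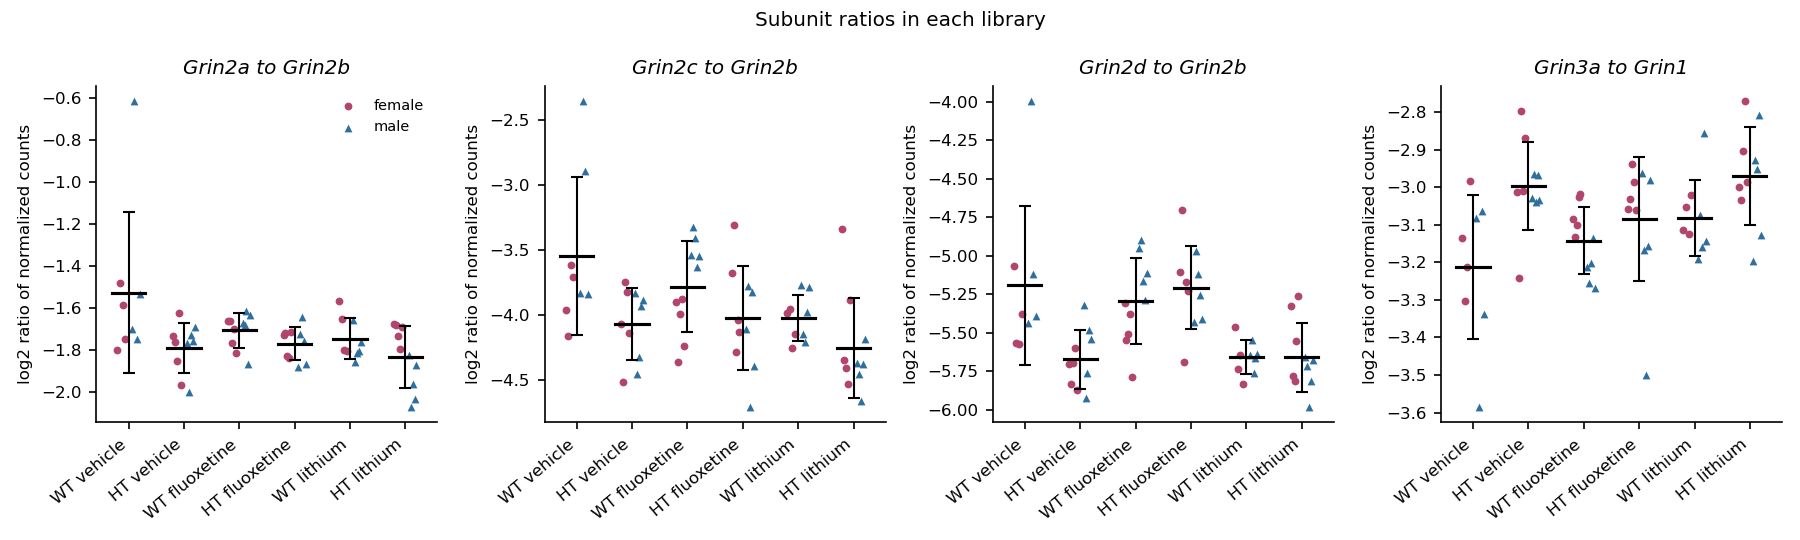
Log2 ratio of normalized counts (y axis) for 4 pairs of subunit genes in each of 57 libraries, by arm (x axis); points are libraries coloured by sex, bars the arm mean with its SD. In the Grin2a to Grin2b ratio WT vehicle male 2 lies at -0.62 while all other libraries lie lower, and the Grin2d to Grin2b ratio averages -5.21 in HT fluoxetine and -5.67 in HT vehicle.

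Subunit genes also varied together within groups. Deviations of log2 values from the mean of the group were correlated over 57 libraries, with 100000 permutations within groups and adjustment over 81 relations, of which 18 passed by both coefficients. Grin2a and Grin2b deviated together, with r = 0.76 and rho = 0.66 (adjusted p = 0.00014 and 0.00016, from the smallest p that the permutations can give, 1e-05). Without WT vehicle males 2 and 4, the farthest in Grin2a, r was 0.70. Grin2b and Grin3a gave r = 0.67 and rho = 0.61 (adjusted permutation p = 0.00014 and 0.00016), and 0.53 without the 2 farthest libraries. Grin1 and Grin2a gave r = 0.52 and rho = 0.53 (adjusted permutation p = 0.00148 and 0.00191). Grin2c ran against Grin1 and Grin2a, with r = -0.71 to Grin1 (rho = -0.67, adjusted permutation p = 0.00014 and 0.00016) and r = -0.50 to Grin2a (rho = -0.59, adjusted permutation p = 0.00621 and 0.00036). Its r was -0.14 to Grin2b, -0.03 to Grin3a and 0.04 to Grin2d, none of which passed by both coefficients. Between Grin2c and Grin2b rho was -0.46 and passed (adjusted permutation p = 0.012), and r was -0.41 without WT vehicle male 2. Without the 2 farthest libraries r to Grin1 and to Grin2a was -0.64 and -0.65. Without WT vehicle male 2 alone the 5 relations had r of 0.74, 0.58, 0.53, -0.75 and -0.64. No relation of Grin2d to another member passed.

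The technical and cellular measures that moved with the members differed by subunit. The length trend went with Grin2b (r = 0.72, rho = 0.71), Grin3a (r = 0.56, rho = 0.49) and Grin2a (r = 0.53, rho = 0.39). These 3 members rank first in length by the longest coding transcript of each gene. The trend is built on the median over all transcripts of a gene, coding or not, which is not given here for the members. By the median over coding transcripts alone, a different measure, Grin2b, at 1582 bases, was the shortest member. All 3 relations passed by the permutation test. Without the 2 farthest libraries r was 0.67, 0.45 and 0.39, and with WT vehicle male 2 alone left out 0.71, 0.49 and 0.46. Grin2c went with astrocyte markers (r = 0.81, rho = 0.82, and 0.78 without the 2 farthest libraries), microglial markers (r = 0.72, rho = 0.69), endothelial and mural markers (r = 0.63, rho = 0.52) and the list of choroid plexus and thalamus (r = 0.58, rho = 0.54). Grin1 went against the same 4 lists, with r of -0.62, -0.65, -0.48 and -0.48. Grin2d went with olfactory bulb markers and against parvalbumin interneuron markers (r = -0.50, rho = -0.37), and r to the bulb list was 0.43 without HT lithium female 5 and WT vehicle female 1, the farthest. The adjusted permutation p was under the threshold for each of these relations by both coefficients, the largest being 0.0376 for Grin2d with parvalbumin markers by rho.

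**Figure D4:**
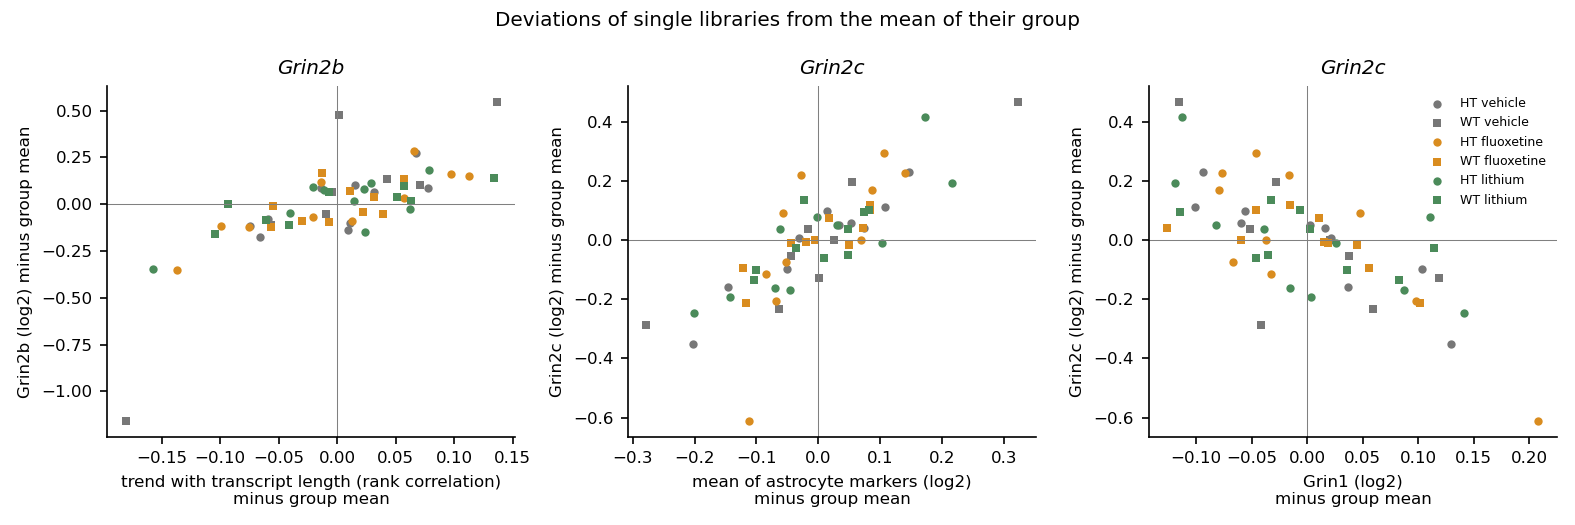
Deviation of each library from its group mean (log2 values on the y axes): Grin2b against the length trend, Grin2c against the mean of astrocyte markers and Grin2c against Grin1; circles are HT, squares WT, colours the treatment. Pearson r over the 57 libraries is 0.72, 0.81 and -0.71.

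The genes most like each member, over 57 libraries and 12597 genes with a mean of at least 100, were found by the same correlation about group means and are given as a description. Grin1 was most like Slc7a8, an amino acid transporter (r = 0.79), and like Pacs1 (r = 0.76). Grin2a was most like Atp2b1, a calcium pump (r = 0.84), Kcnq3, a potassium channel (r = 0.81), and Prkaa2, a subunit of AMP-activated kinase (r = 0.81). Grin2b was most like Trpc5, a cation channel (r = 0.94), Hectd4 (r = 0.93) and Htt, the huntingtin gene (r = 0.93). Grin2c was most like Itgb5, an integrin (r = 0.82), Klhdc7a (r = 0.82) and Acsbg1, an acyl-CoA synthetase (r = 0.81). Grin2d was most like Zfp608 (r = 0.73), Dcx, a microtubule protein of migrating neuroblasts (r = 0.73), and Sema4g (r = 0.72). Grin3a was most like the teneurin Tenm1 (r = 0.85) and the cell adhesion genes Chl1 (r = 0.82) and Ncam2 (r = 0.80). WT vehicle male 2 enters all of these values.

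Genes that anchor, modify, supply or act downstream of NMDA receptors were read from 6 lists, with 95 of 97 genes tested. The lists were chosen with results of these data in view, so their counts are a description. The share of all genes called was 0.762% under vehicle and 3.74% over all treatments, beside 2 and 6 of the 95 here, and nothing is read from counts this small. Under vehicle 1 of 95 was higher in HT, Grm5, which encodes the mGluR5 receptor linked to the NMDA receptor complex (0.29 ± 0.07, adjusted p = 0.034), and 1 was lower, Actn2, an actin crosslinker that binds GluN1 and GluN2B (-0.45 ± 0.10, adjusted p = 0.0168). Over all treatments 3 were higher, among them Grm5 (0.15). 3 were lower: Actn2 (-0.26), the neurofilament gene Nefl (-0.12) and Glul, the glutamine synthetase of astrocytes (-0.10). With fluoxetine 0 of 95 passed in HT by limma, beside 0.33% of all genes. In WT 1 of 95 rose, Dlgap1, a scaffold protein of the postsynaptic density (0.14 ± 0.03), beside 0.84% of all genes. Over both genotypes the glycine transporter Slc6a9 (0.26) and Tiam1 (0.19), an activator of Rac, rose, beside 4.75% of all genes. Without WT vehicle male 2 the genes called fell from 140 to 5 for fluoxetine in WT and from 127 to 48 for genotype under vehicle. The pathway genes were not examined without that library.

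Pathway genes were called most often with lithium, as were all genes. Among all genes 8.53% were called in WT, or 1421 genes, and 909 genes without WT vehicle male 2. Of the 95 pathway genes 11 rose and 1 fell in WT. Among those with the smallest adjusted p were Mapk3, a kinase downstream of the receptor, which fell (-0.26 ± 0.06), and Apba1 (0.16) and Lin7a (0.31), parts of the complex that ties GluN2B vesicles to a kinesin, with Grm5 (0.29) and the scaffold Dlg2 (0.22), which rose. In HT 1 of 95 passed, Mapk3 again (-0.23 ± 0.06, adjusted p = 0.0278). Over both genotypes 16 rose and 3 fell, beside 13.3% of all genes, led by Mapk3 (-0.25 ± 0.04, adjusted p = 8.42e-05). The median change of the 95 was 0.06 in WT and 0.01 in HT, against -0.01 and 0.00 over all genes tested. Whether the lithium changes of these genes differ between genotypes gave 0 of 95. The length trend ran from -0.33 to 0.05 in WT vehicle and from -0.07 to 0.17 in WT lithium. Its part in the lithium changes was not tested.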

How the data were processed

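The authors deposited 1 table of normalized estimated counts per gene and library, a signal that is never negative and not whole; the tools named in the submitters' processing notes are DESeq2 1.19.11, Salmon 0.11.2 and R 3.6.0, and the build is GRCm38. No source used here gives the annotation release, the filters or the strand setting, and single reads could not be recovered, so the depth is unknown. Libraries came from a stranded mRNA kit, per the labels' protocols. Every column was matched to a sample by its library name.

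From these values limma 3.58.1, run under R 4.3.3 with a variance trend and robust moderation, was applied to log2(value + 1) for the 16659 genes with a mean of at least 10. All 57 libraries entered 1 fit of 12 groups of genotype, drug and sex. Contrasts average both sexes, and p-values were adjusted over all genes. The pseudocount understates changes of low genes. Ratios, correlations and permutation tests used Python 3.11.15 with numpy 2.4.6. Gene positions and lengths are those of GENCODE on GRCm38, and upstream sequences those of RefSeq, which matched 3 of 6 members.

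Named genes are Shank2, the 6 members, up to 6 called pathway genes per comparison by adjusted p, and the 3 genes most like each member; a few genes that the rule names are not reported here. Members, lists and tests were chosen with earlier results of these data known. Alternatives were pseudocounts of 0.5 and 5, a minimum mean of 50 or none, only the groups compared, rescaling, library weights, a replicate block, a length term, and each library left out. For ratios the length term was chosen after seeing the data. The fits were tested on simulated data. Replicate numbers did not pair the samples.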

Additional observations from a re-analysis of the deposited data

Results flagged for a closer look

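Within groups of 4 or 5 libraries, 120 checks of the members and ratios for a library far from the others (Dixon's criterion at 95%) gave 8 such values, and chance gives about 1 in 20. Grin1 was highest in HT fluoxetine male 3 (23606, next 20200.1) and in WT lithium female 3 (19212, next 17355), and lowest in WT fluoxetine male 2 (16622, next 18267). Grin2a was lowest in HT lithium female 1 (6796, next 8425). Grin2c was highest in WT lithium female 2 (1833, next 1639.6), and Grin2d in WT vehicle female 1 (862, next 598). The log2 ratio of Grin2a to Grin2b was lowest in HT vehicle male 2 (-2.003, next -1.767) and in WT fluoxetine male 4 (-1.87, next -1.68). WT vehicle male 2 was not among them.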

How the results depend on the processing

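Grin3a over all treatments kept its call under every alternative listed in the methods that was run for it, and Grin2d in HT fluoxetine lost its call without HT fluoxetine female 4. The number of members called under vehicle was 0 with no filter, with only the compared groups or with library weights, and 2 with the length term (Grin2b, Grin3a). Library weights gave 3 calls over all treatments (Grin2b, Grin2c, Grin3a) and 1, Grin2c, for lithium in HT and for lithium over both genotypes. The length term gave 3 calls for fluoxetine in HT (Grin2a, Grin2b, Grin2d) and 0 for fluoxetine over both genotypes. The causes were not tested.

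Signs turned in values that were not called, most of them near 0. With library weights Grin2a was 0.0088 for genotype under lithium and -0.051 for fluoxetine in WT, Grin2d -0.0044 for lithium in HT, Grin2b -0.060 for fluoxetine over both genotypes and Grin2c 0.0019 for the fluoxetine interaction. With the length term fluoxetine in WT gave -0.11 for Grin2a, -0.074 for Grin2b and 0.0086 for Grin2c, and lithium in HT -0.30 for Grin2b and -0.064 for Grin2d. It gave -0.043 for Grin1 and -0.022 for Grin2a for lithium in WT. Over both genotypes it gave -0.21 for Grin2b and -0.033 for Grin3a with fluoxetine, and -0.099 for Grin2a, -0.14 for Grin2b and -0.068 for Grin3a with lithium. Of the ratios, the median of libraries gave -0.074 for Grin2c to Grin2b with fluoxetine in HT, and for Grin2d to Grin2b 0.052 with fluoxetine in WT and -0.014 with lithium in HT. The length term gave 0.083 and 0.086 for Grin2c and Grin2d to Grin2b with fluoxetine in WT, and with lithium in HT 0.12 for Grin2a to Grin2b, 0.18 for Grin2c to Grin2b and -0.052 for Grin3a to Grin1.

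Leaving out each library gave 0 to 2 calls under vehicle, 1 to 2 over all treatments, and 0 to 1 for fluoxetine in HT, lithium in WT and lithium over both genotypes. Genotype values ran from -0.11 to 0.0037 for Grin2d under vehicle, and for Grin2a from -0.036 to 0.029 under fluoxetine and -0.021 to 0.032 under lithium. For fluoxetine they ran from -0.023 to 0.011 for Grin3a in HT, and in WT from -0.057 to 0.063 for Grin2a, -0.0069 to 0.28 for Grin2b and -0.098 to 0.027 for Grin2c. For lithium they ran in HT from -0.022 to 0.045 for Grin2b, -0.016 to 0.037 for Grin2d and -0.060 to 5.3e-05 for Grin3a, and in WT from -0.018 to 0.021 for Grin1. Grin2b over both genotypes with fluoxetine ran from -0.090 to 0.052 and between sexes from -0.090 to 0.0051. Grin2c ran from -0.15 to 0.0012 in the fluoxetine and -0.10 to 0.021 in the lithium interaction. The Grin2a to Grin2b ratio ran from -0.32 to -0.13 under vehicle and -0.0090 to 0.038 for fluoxetine in HT, and Grin2c to Grin2b from -0.024 to 0.12 there. Grin2d to Grin2b ran from -0.034 to 0.036 for genotype under lithium, -0.024 to 0.052 for lithium in HT and -0.18 to 0.061 for fluoxetine in WT, and Grin3a to Grin1 from -0.0061 to 0.050 for lithium in HT.

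Same-numbered libraries did not deviate together (6 of 82 pairs over 0.1, median r -0.01). With a replicate block no member call moved, and the Grin3a to Grin1 ratio under vehicle passed (adjusted exact p = 0.0269). Depth is unknown, so no counting error can be given.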
